A study of Homo sapiens with 2 samples.

Results

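The LIM homeobox factors are transcription factors that carry a pair of LIM zinc-finger domains and a DNA-binding homeodomain. The genes described here are LHX1, LHX2, LHX5, LHX6, LHX8, LHX9, LMX1A, LMX1B, ISL1 and ISL2. They were taken by gene symbol, and all 10 were found on 1 row each, out of 24462 symbols. RNA sequencing was done on 1 library of undifferentiated H9 cells, an established human embryonic stem cell line (hESC), and on 1 library of neural precursor cells (NPC) derived from H9 by co-culture with MS5, a mouse stromal feeder line. Both libraries come from the same line and carry no stated genetic change. The labels give no age in culture, no sorting step and no replicate, so there is no test between the groups and there are no p-values.

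In LIM homeobox proteins the homeodomain reads the DNA and the LIM domains bind partner proteins. The main partner is the scaffold LDB1, which joins LIM homeobox proteins to each other and to other factors. LIM-only (LMO) proteins, which have LIM domains but no homeodomain, compete for the same scaffold. The family is known for giving neurons and brain regions their identity, among them the cortex (LHX2), interneurons of the ventral forebrain (LHX6), dopamine neurons of the midbrain (LMX1A, LMX1B) and motor neurons (ISL1, ISL2).

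The hESC library held 19686728 and the NPC library 24065750 counted reads. Levels are in CPM, read counts relative to a library size scaled with TMM factors, and 1 read is worth 0.0575 CPM in hESC and 0.0368 CPM in the NPC library. The pluripotency markers POU5F1 (1259 and 0.662 CPM in hESC and NPC library) and NANOG (204 and 2.57 CPM) went with the labels. So did the neural markers PAX6 (1.04 and 83.4 CPM) and SOX1 (0.460 and 50.6 CPM). Of the neural progenitor and neuron lists, 5 of 7 and 6 of 9 measured genes were higher by the 2-fold rule given below, against 19.6% of all measured genes. Of the 7 and the 9, 2 and 3 reached 5 CPM in the NPC library alone, which closed a lower call to them. Of all genes that did so 77.0% were higher. SOX2 (213 and 283 CPM), NES (355 and 366 CPM), TUBB3 (213 and 196 CPM) and SYP (16.3 and 34.9 CPM) did not pass the rule. The neuron gene RBFOX3 was lower (22.8 and 2.17 CPM). All intervals are exact 95% counting intervals. They do not cover how cultures vary, nor that reads lacking molecular identifiers may be copies of 1 molecule. In RNA of whole cultures, fewer cells of a type and less RNA per cell cannot be told apart. Whether RNA of the mouse feeder cells added reads to the NPC library was not tested.

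The members fall into 5 pairs of close paralogs, whose homeoboxes were compared because reads from like stretches could be assigned to the wrong gene. Shown is the end of the homeobox, 60 coding bases that hold the recognition helix, for 3 pairs. They come from the longest coding transcripts in GENCODE 29. Capitals mark the bases at which the genes of a pair differ.
LHX6: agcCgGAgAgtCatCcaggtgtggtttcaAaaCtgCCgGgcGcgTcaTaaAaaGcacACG
LHX8: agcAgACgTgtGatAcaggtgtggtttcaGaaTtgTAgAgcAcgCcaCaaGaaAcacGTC
LMX1A: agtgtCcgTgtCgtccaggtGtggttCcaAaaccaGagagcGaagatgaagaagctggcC
LMX1B: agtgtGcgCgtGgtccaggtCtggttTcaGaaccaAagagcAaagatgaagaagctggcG
ISL1: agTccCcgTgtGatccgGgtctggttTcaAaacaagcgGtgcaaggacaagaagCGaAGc
ISL2: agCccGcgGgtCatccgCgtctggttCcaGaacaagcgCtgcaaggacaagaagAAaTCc
LHX2 lies on chromosome 9 and LHX9 on chromosome 1, LHX6 on 9 and LHX8 on 1, LMX1A on 1 and LMX1B on 9, and ISL1 on 5 and ISL2 on 15. Over the 60 bases LHX6 and LHX8 differed at 19, LMX1A and LMX1B at 9, and ISL1 and ISL2 at 12 positions. Over the whole homeobox of 180 bases, identity within a pair was 88.9% for LHX1 (chromosome 17) and LHX5 (chromosome 12), 87.2% for ISL1 and ISL2, 81.7% for LHX2 and LHX9, 77.8% for LMX1A and LMX1B and 72.2% for LHX6 and LHX8. The other 40 combinations of members ranged from 46.7% to 62.2%. The longest run of identical bases shared by 2 transcripts was 53 bases for LHX1 and LHX5, 41 for ISL1 and ISL2, 33 for LHX2 and LHX9, 17 for LMX1A and LMX1B and 14 for LHX6 and LHX8. Outside the pairs it was at most 20 bases. The sources used here do not state the read length or how reads with several matches were handled, so whether reads were moved between LHX1 and LHX5 or between ISL1 and ISL2 was not tested.

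LHX2 had the highest level of the members in the NPC library, and LHX6 in the hESC library. The 10 genes together had 116 reads (6.67 CPM) in hESC and 3120 reads (115 CPM) in NPC cells, a ratio of 17.2 (14.3 to 20.9). Without LHX2 the sums were 6.44 and 43.3 CPM, a ratio of 6.72 (5.53 to 8.23). LHX2, LHX5, LHX9 and ISL1 were at least 2-fold higher in the NPC library, as judged by the interval bound closest to no difference, and LHX6 went the other way at a low level.

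Of the 10 members, 4 reached 5 CPM in either library and are called measured, and all 4 were higher by the 2-fold rule. Over all 13535 measured genes 19.6% were higher and 19.8% were lower. The 4 members reached 5 CPM only among the NPC reads, so a lower call was closed to them. Of all 1638 genes that passed it that way, 77.0% were higher. The median log2 ratio of the 4 was 6.30, against -0.09 over all measured genes. With a filter at 1 CPM, 9 members were measured. Of these 7 were higher (20.4% of all genes under that filter), 1 was lower (18.9%) and 1 passed neither way. Their median log2 ratio was 4.12, against 0.01 for all genes. Each of the 9 passed through 1 library alone, 8 through NPC and LHX6 through hESC, which closed the opposite call to it. The share called among all genes that passed that way was not computed at 1 CPM. With no filter 7 members were again higher and 1 lower, against 16.6% higher and 15.3% lower of all genes with a read.

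**Figure D1:**
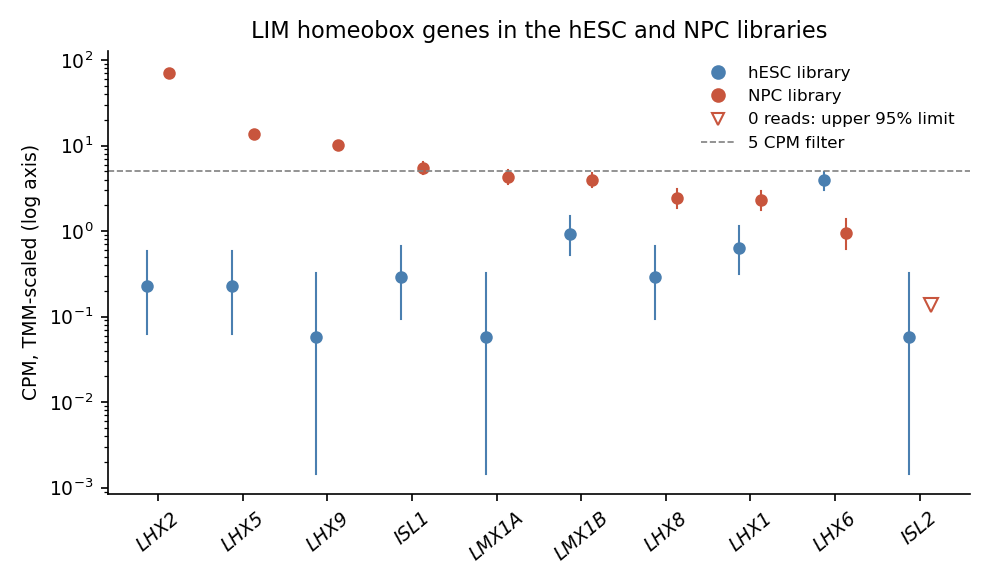
Level of each LIM homeobox gene in CPM on a log axis, with 1 point for each library (blue hESC, red NPC) and its 95% counting interval as a line. In the NPC library LHX2 stands at 71.4 CPM, above all other members, and LHX6 is the 1 gene with reads in both libraries whose hESC point lies above its NPC point. The dashed line is the 5 CPM filter, and the open triangle for ISL2 is the upper limit for 0 reads.

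LHX2, a selector gene of the cerebral cortex that is also needed to form the eye field, had 4 reads in hESC and 1943 reads in the NPC library. These are 0.230 CPM (0.0627 to 0.589) and 71.4 CPM (68.3 to 74.7), and the intervals are far apart. The ratio was 276 (121 to 1140), a higher ratio than that of 99.6% of measured genes. Of the 13535 measured genes 11897 had at least 5 CPM in hESC, whereas LHX2 entered through the NPC library alone. Its rank among the 1638 genes that entered that way was not computed. Per kilobase of its longest transcript LHX2 stood above 91.3% of 21875 genes in the NPC library and above 24.0% in the hESC library. With a filter at 20 CPM LHX2 was the 1 member measured and was higher. Of all genes under that filter 18.0% were higher and 21.6% lower. LHX2 passed this filter too through the NPC library alone, which closed a lower call to it.

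LHX9, the paralog of LHX2, which acts in the gonad and in the thalamus, had 1 read (0.0575 CPM) in hESC and 276 reads (10.1 CPM) in the NPC library. The ratio was 118 (31.4 to 6991), with an upper bound set by the single hESC read. LHX5, which acts in the developing forebrain and hippocampus, had 4 reads (0.230 CPM) and 373 reads (13.7 CPM), a ratio of 53.0 (23.1 to 220). LHX5-AS1, an antisense gene that lies beside it, had 0 and 84 reads. LHX1, the paralog of LHX5 and a gene of the head organizer, the kidney and Purkinje cells, had 11 reads (0.633 CPM) and 62 reads (2.28 CPM). LHX1 stayed under 5 CPM in both libraries, and its ratio of 3.47 (1.88 to 7.59) had a near bound under 2-fold.

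LHX6 and LHX8 are both known from the medial ganglionic eminence, the ventral forebrain zone that forms cortical interneurons (LHX6) and cholinergic neurons (LHX8). LHX6 had 68 reads in hESC and 26 reads in the NPC library, or 3.91 CPM (3.04 to 4.96) and 0.956 CPM (0.624 to 1.40). The intervals do not overlap, and the hESC value was 4.05-fold that of the NPC library (2.57 to 6.70). LHX8 went the other way, with 5 reads (0.288 CPM) and 66 reads (2.43 CPM), a ratio of 7.73 (3.44 to 26.8). Neither gene reached 5 CPM. LHX6 in the hESC library was the 1 value above 1 CPM among the 10 members there.

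LMX1A and LMX1B, which specify the midbrain floor plate and its dopamine neurons (LMX1B also serotonin neurons and the dorsal limb), lay just under the filter in the NPC library. LMX1A had 1 read (0.0575 CPM) in hESC and 116 reads (4.26 CPM) in NPC cells, a ratio of 49.6 (13.04 to 2953). LMX1B had 16 reads (0.920 CPM) and 109 reads (4.01 CPM), a ratio of 4.24 (2.56 to 7.88). Both were higher by the 2-fold rule once the filter was set at 1 CPM. The members just inside the filter were ISL1 (5.48 CPM) and just outside it LMX1A (4.26 CPM).

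ISL1, a factor of motor neurons, heart progenitors and pancreatic islets, had 5 reads (0.288 CPM) in hESC and 149 reads (5.48 CPM) in the NPC library. The ratio was 17.4 (7.98 to 59.5). ISL2, its paralog in motor neurons, had 1 read in hESC and 0 reads in the NPC library, where the upper limit was 0.136 CPM. No ratio is given for ISL2, since both counts lie under a floor of 3 reads. Of this pair only ISL1 had reads in the NPC library.

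**Figure D2:**
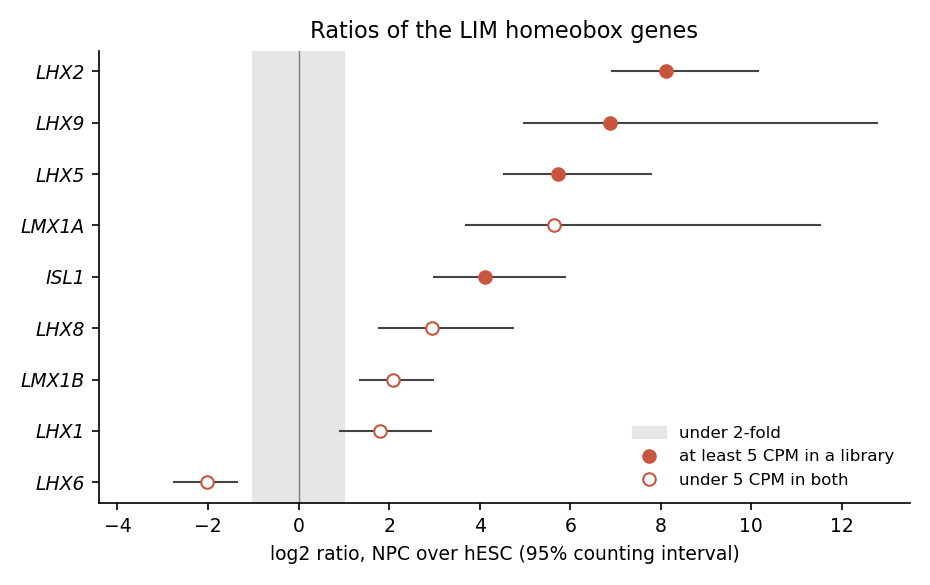
Log2 ratio of NPC over hESC for the 9 members with more than 3 reads in a library, with 95% counting intervals as lines and the range under 2-fold in grey. The filled points reached 5 CPM in a library, and the open points did not. LHX6, at -2.02, is the 1 point left of the grey band, and the interval of LHX1 (0.91 to 2.92) reaches into it.

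To compare levels between genes, CPM was divided by the length of the longest GENCODE 29 transcript. On that scale LHX2 had 28.0 CPM per kb (26.7 to 29.2) in the NPC library and made up 69.9% of the summed level of the 10 genes. LHX5 followed with 4.67 CPM per kb (4.20 to 5.16), 5.99-fold under LHX2, and ISL1 with 2.23 (1.88 to 2.62). LHX9 at 1.29, LMX1A at 1.20, LHX8 at 1.02, LMX1B at 0.690 and LHX1 at 0.665 CPM per kb came next, and the interval of each overlapped that of its neighbour. LHX6 lay below them at 0.266 CPM per kb. In the hESC library LHX6 had 1.09 CPM per kb (0.847 to 1.38), 57.6% of the summed level, and the other 9 lay between 0.00734 (LHX9) and 0.185 (LHX1). The order depends on the transcript chosen for LHX9, whose longest transcript is 7836 bases and whose median one is 1337 bases. With the median transcripts LHX9 stood at 7.59 CPM per kb in the NPC library, level with LHX5 at 7.51 and above ISL1 at 4.52, while LHX2 at 53.3 was still the highest.

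Within the pairs, the shares differed between the 2 libraries beyond their intervals for 3 of 5 pairs. Of the reads per kb of LHX1 and LHX5, LHX5 held 29.8% (8.96 to 58.8) in hESC and 87.5% (84.2 to 90.3) in the NPC library, and its hESC interval includes equal shares. LHX6 held 90.0% (78.6 to 96.6) of LHX6 and LHX8 in hESC and 20.7% (13.7 to 29.4) in the NPC library. LMX1B held 90.7% (60.3 to 99.8) of LMX1A and LMX1B in hESC and 36.4% (30.4 to 42.9) in the NPC library. For these 3 pairs the intervals of the libraries do not overlap. LHX9 held 7.53% (0.165 to 45.2) of LHX2 and LHX9 in hESC, with 5 reads in all, and 4.42% (3.91 to 4.99) in the NPC library, where it held 12.4% by reads alone and 12.5% with median transcripts. ISL2 held 20.7% (0.550 to 70.0) of ISL1 and ISL2 in hESC, with 6 reads in all, and 0% (up to 3.17) in the NPC library. For the last 2 pairs the hESC reads are too few to show a difference. Without division by length, LMX1B held 48.4% of the reads of its pair in the NPC library, and its interval of 41.8 to 55.2 includes equal shares.

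**Figure D3:**
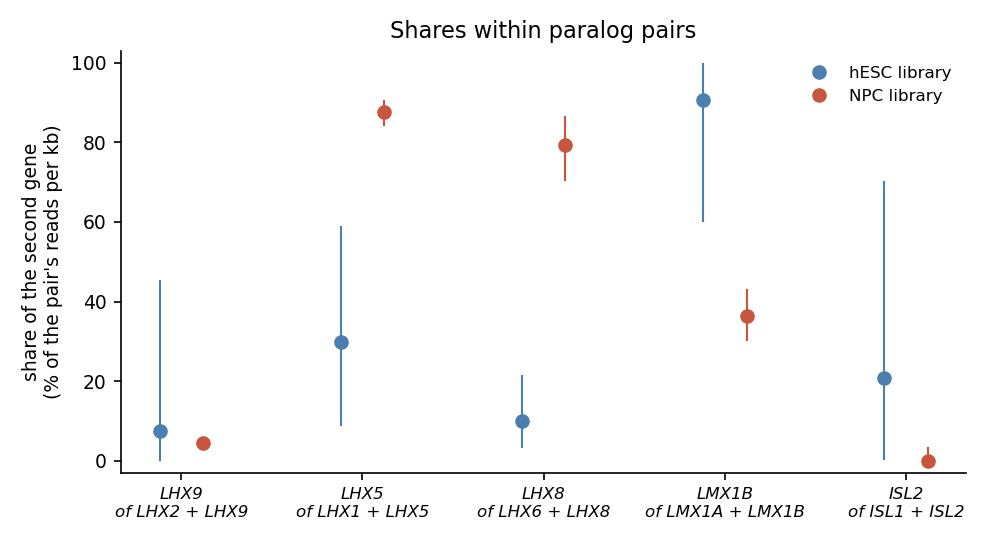
Share of the second gene of each paralog pair in the reads per kb of the pair, in percent, with 95% counting intervals as lines (blue hESC, red NPC). The share of LHX5 goes from 29.8% to 87.5%, that of LHX8 rises to 79.3%, and that of LMX1B goes from 90.7% to 36.4%.

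The promoter windows of LHX2 and LHX6, which went in opposite directions, are shown to compare their sequence. The window runs from 250 bases before to 50 bases after a RefSeq transcript start (GRCh38.p14), and 8 of the 10 members had an entry, with none for LHX1 and LHX5. For LHX6, which has 3 such starts, the first on its strand is shown. Which start was used in these cells was not tested. Capitals mark matches on either strand to the TATA box TATAAA, the CAAT box CCAAT, the GC box GGGCGG or the homeodomain core TAATTA, none of which overlap here.
LHX2, chr9:124011518-124011817, plus strand: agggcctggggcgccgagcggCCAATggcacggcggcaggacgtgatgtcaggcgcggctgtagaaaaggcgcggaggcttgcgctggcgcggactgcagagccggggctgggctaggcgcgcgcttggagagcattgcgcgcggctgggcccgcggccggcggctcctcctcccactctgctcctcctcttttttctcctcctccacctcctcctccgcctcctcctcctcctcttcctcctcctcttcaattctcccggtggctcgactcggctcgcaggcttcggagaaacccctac
LHX6, chr9:122228384-122228683, minus strand: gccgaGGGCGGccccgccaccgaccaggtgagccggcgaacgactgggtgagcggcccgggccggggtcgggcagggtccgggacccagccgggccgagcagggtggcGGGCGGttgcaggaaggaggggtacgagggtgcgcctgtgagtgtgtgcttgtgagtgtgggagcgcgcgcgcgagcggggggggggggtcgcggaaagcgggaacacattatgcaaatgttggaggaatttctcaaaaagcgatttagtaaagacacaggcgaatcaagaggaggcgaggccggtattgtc
The LHX2 window held 30 CpG and the LHX6 window 31, against a median of 14 in all 35116 promoter windows. GC content was 69.0% and 67.0%, against a median of 58.7%. The other 2 windows of LHX6 held 7 and 16 CpG, with a GC content of 56.3% and 54.7%. The LHX2 window had 1 match to CCAAT, which 34.6% of all windows hold, and the LHX6 window had 2 to GGGCGG, which 45.0% hold. TAATTA, found in 4.84% of all windows, was in none of the 13 windows of the members. TATAAA, found in 11.5% of all windows, was in 1 of 3 windows of LHX6 and 1 of 2 of LHX8. A match is only a run of letters in the window.

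LIM homeobox genes outside the 10 members were LHX3 and LHX4, both pituitary and motor neuron factors. LHX3 had 0 and 2 reads. LHX4 had 15 reads (0.863 CPM) in hESC and 57 reads (2.10 CPM) in NPC cells, a ratio of 2.37 (1.36 to 4.62), and overlaps the genes ACBD6 and LHX4-AS1.

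RNA of the genes that encode partner proteins was found in both libraries. All 6 genes of a list of cofactors and regulators reached 5 CPM in each library. Of these 1 was higher (19.6% of all measured genes) and none was lower (19.8%), with a median log2 ratio of 0.47. The exception was SSBP2, which encodes a single-stranded DNA-binding protein that stabilises LDB1, at 19.6 and 170 CPM, a ratio of 8.67 (7.77 to 9.72). Its relatives SSBP3 (211 and 244 CPM) and SSBP4 (39.4 and 65.3 CPM) did not pass the rule. LDB1, the scaffold itself, had 82.0 and 142 CPM, a ratio of 1.74 (1.63 to 1.85). It passed the rule with library totals in place of TMM, at 2.22 (2.09 to 2.36). LDB2, the second scaffold gene, had 70.7 and 33.4 CPM, a ratio of 0.472 (0.433 to 0.515), close to the rule on the lower side. RLIM, a ubiquitin ligase that targets LDB1, had 78.4 and 77.2 CPM, and its direction depends on the scaling, with a ratio of 0.985 by TMM and 1.26 by library totals.

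Among the LIM-only genes, 2 of 3 measured were higher (19.6% of all measured genes) and none lower (19.8%), with a median log2 ratio of 2.38. LMO2, a scaffold protein of blood and vessel precursors, had 0.863 and 28.3 CPM, a ratio of 31.8 (19.8 to 59.0). It reached 5 CPM in the NPC library alone, and 77.0% of all genes that did so were higher. LMO3, expressed in the forebrain, had 9.32 and 48.7 CPM, a ratio of 5.21 (4.44 to 6.19). LMO4 had 38.8 and 49.7 CPM, within the rule, and LMO1 had 5 and 60 reads, under the filter.

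Genes of the regions in which the members are known to act were read from lists, as counts beside the 19.6% higher and 19.8% lower of all measured genes. Most of their measured genes were under 5 CPM in hESC and entered through the NPC library alone, which closed a lower call to them, and 77.0% of all genes that entered that way were higher. In the list for the medial ganglionic eminence with its GABAergic and cholinergic neurons, 7 of 8 measured genes (of 18) were higher and none lower, 6 of the 8 through the NPC library alone, with a median log2 ratio of 5.97 (5.39 with any gene at 0 reads placed at its bound). NKX2-1, a factor of this zone upstream of LHX6 and LHX8 in the mouse, had 1 read in hESC and 2387 in the NPC library. Its level there was 87.7 CPM, where LHX6 had 0.956 and LHX8 2.43 CPM. Which region the cells with NKX2-1 reads belong to was not tested. ERBB4, a receptor of migrating interneurons, had 60.1 CPM in NPC cells, a ratio of 99.5 (56.6 to 218), and the chromatin factor gene SATB1 had 33.3 and 53.7 CPM, within the rule. The choline acetyltransferase gene CHAT had 0 and 19 reads, and SST, the gene of somatostatin, 4 and 61 reads.

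In the list for the cortical hem and Cajal-Retzius cells, the signalling border of the cortex and its early neurons, 7 of 10 measured genes (of 12) were higher and none lower, 8 of the 10 through the NPC library alone, with a median log2 ratio of 3.75. WNT8B had 0.633 and 192 CPM, a ratio of 290 (169 to 608), and RSPO3 had 1 and 4634 reads. RELN, the gene of reelin, had 1.09 and 115 CPM, a ratio of 102 (67.0 to 174). TP73 (11.4 and 10.7 CPM), BMP4 (2.42 and 5.62 CPM) and CALB2 (2.13 and 5.04 CPM) were measured but within the rule. Under the filter in this list, WNT3A had 3 and 4 reads and WNT2B 13 and 102 reads. The eye field list had 6 of 7 measured genes (of 10) higher and none lower, 5 of the 7 through the NPC library alone (median 6.29). OTX2 (199 CPM in the NPC library), SIX3 (94.9 CPM) and PAX6 (83.4 CPM) stood beside LHX2, at 71.4 CPM. In the thalamus and hypothalamus list 3 of 4 measured genes (of 13) were higher and none lower, 2 of the 4 through the NPC library alone (median 3.40). The thalamic and WNT effector gene TCF7L2 had 154 and 81.7 CPM, within the rule, FEZF1 5.47 and 65.1 CPM, and OTP, a hypothalamic factor, 0.173 and 13.8 CPM.

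In the floor plate and midbrain dopamine list, where LMX1A and LMX1B act, 5 of 6 measured genes (of 13) were higher and none lower, 5 of the 6 through the NPC library alone, with a median log2 ratio of 5.62 (5.57 with any gene at 0 reads placed at its bound). MSX1 had 10.04 CPM in the NPC library, TH, the gene of tyrosine hydroxylase, 7.87 CPM, and the monoamine transporter gene SLC18A2 11.2 and 7.79 CPM, within the rule. The dopamine neuron factor PITX3 had 9 and 4 reads. In the serotonin list 0 of 5 genes were measured, and SLC6A4 was the highest in the NPC library with 3.86 CPM.

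In the motor neuron list, for ISL1 and ISL2, 2 of 8 genes were measured, both through the NPC library alone, and both were higher, NEUROG2 with 1 and 333 reads and the vesicular acetylcholine transporter gene SLC18A3 with 0 and 155 reads. MNX1, which defines motor neurons, had 3 and 4 reads and OLIG2 50 and 21 reads. In the hindbrain and spinal interneuron list 3 of 15 were measured, PAX2, FOXP2 and EN1, all through the NPC library alone, and the 3 were higher, with 48.2, 16.4 and 7.06 CPM in the NPC library. FOXD3 of that list had 86 reads (4.95 CPM) in hESC and 0 in the NPC library.

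**Figure D4:**
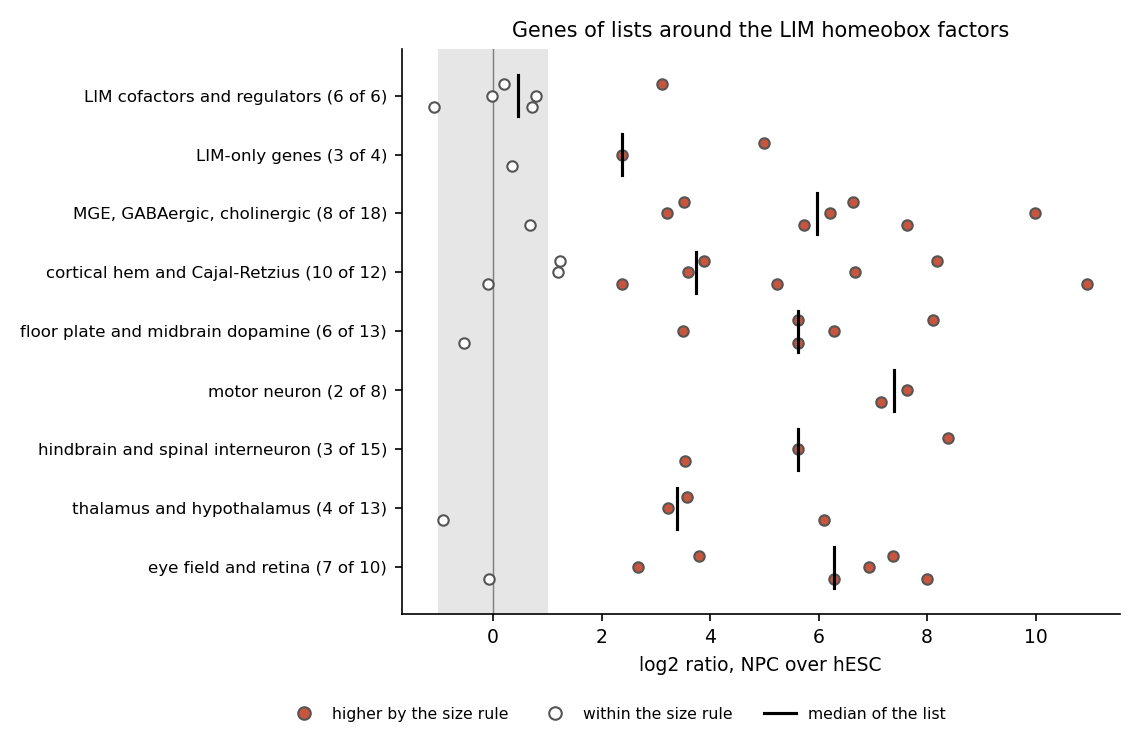
Log2 ratio of NPC over hESC for the measured genes of each list, with the number measured of the number listed in brackets, the median as a black bar and the range under 2-fold in grey. Filled points were higher by the rule and open points did not pass it. The cofactor genes other than SSBP2 lie near the grey band, while most points of the regional lists lie to the right of it.

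Markers of other cell types that express members were read as well. The heart progenitor list, for ISL1, had a summed 37.9 CPM in hESC and 17.7 CPM in the NPC library. Of its 3 measured genes MEF2C was higher (19.6% of all measured genes), TNNT2 lower (19.8%) and NKX2-5 within the rule (97 and 92 reads). GATA4 of that list had 1 read in each library. The list for kidney, gonad and limb mesoderm, for LHX1, LHX9 and LMX1B, had a summed 7.08 and 35.8 CPM, of which PRRX1 held 19.2 CPM in the NPC library and was higher, while WT1 (2.13 and 5.33 CPM) did not pass the rule. The islet list, for ISL1, had a summed 1.09 and 49.96 CPM, with NKX6-1, INSM1 and NEUROD1, all also neural genes, higher, INS at 0 and 3 reads and GCG at 0 in both. The sensory and autonomic list had a summed 9.43 and 64.1 CPM, with NTRK2 and NTRK3 higher and DRGX at 0 reads in both. Under the filter in that list, RUNX3 had 35 and 4 reads and PRPH 35 and 6 reads. With the filter at 1 CPM both were lower by the 2-fold rule (18.9% of all genes under that filter). They passed it through the hESC library alone, which closed a higher call to them. At 1 CPM POU4F1 (1 and 28 reads) and RUNX1 (16 and 93 reads) were also higher (20.4% of all genes), both through the NPC library alone. The measured genes of the islet, mesoderm and sensory lists, and MEF2C of the heart list, all entered through the NPC library alone. Of all genes that entered that way 77.0% were higher, and a lower call was closed to them. The part of these cell types in the levels of the members was not tested.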

How the data were processed

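RNA was sequenced from 1 hESC and 1 NPC library, each made from 1.3 µg of total RNA with a SMARTER mRNA kit, per the labels' protocols. The authors deposited raw read counts per gene symbol, as whole numbers. TopHat, edgeR and hg19 are named, without their roles, per the submitters' processing notes. The sources used here do not state the counting tool, the strand setting or the annotation. Each file held 25737 rows, and of 286 symbols on several rows the row with most reads was kept.

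TMM factors came from edgeR 4.0.16 (R 4.3.3). Log2 ratios had 0.5 added to each count, and intervals are Clopper-Pearson on the NPC share of reads (Poisson for CPM). A gene with at least 5 CPM in either library was measured. It was called when the bound closest to equality reached 2-fold. A filter of 5 CPM is about 86.9 hESC reads or 136 NPC reads. The ratio code was tested on simulated data. Alternatives were other scalings (library total, DESeq2 1.42.0, upper quartile), filters, bounds and lengths. No set test was run. Promoters are RefSeq's (GRCh38.p14), another build than hg19. Chromosomes and neighbouring genes come from RefSeq's gene table, and no coordinates were matched to the files. Other work used Python 3.11.15, scipy 1.17.1, statsmodels 0.14.6 and Biopython 1.88.

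The members and lists were chosen with earlier results of these data known. The genes named are all members and the other family, cofactor and LIM-only genes. Of each list that did not serve to check the labels, up to 3 genes with most CPM in the NPC library are named. Genes called lower in those lists and defining genes at or near 0 are named too. Others, such as SST, PITX3 and GATA4, were chosen after their values were seen. The lists for pluripotent cells, neural progenitors and neurons served to check the labels: 8 of 8 measured pluripotency genes were lower, 5 of 7 neural progenitor genes were higher, and 6 of 9 neuron genes were higher and 1 lower. Over all measured genes 19.6% were higher and 19.8% lower. Some list genes and sequences are not reported here.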

Additional observations from a re-analysis of the deposited data

How the results depend on the processing

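No library could be left out, since each group has 1, and no paired analysis was possible because the labels give no replicate numbers. All 12 alternatives kept the direction of the 9 members with a ratio. The changed filters, the 4-fold bound and the rule without an interval alter the call alone and leave the ratio as it is. Only the other alternatives could have changed a direction. The number of members called depended on the filter: 4 were higher and 0 lower at 5 CPM, 7 higher and 1 lower (LHX6) at 1 CPM and with no filter, and 1 (LHX2) higher at 20 CPM. Fewer genes pass a stricter filter by its construction. LHX2 ranged from 5.88 (log2 of CPM + 1) to 8.47 (library total, which shifts every log2 ratio by 0.36). Over all lists, 51 genes were higher and 10 lower at 5 CPM (19.6% and 19.8% of all measured genes). At 1 CPM 71 were higher and 14 lower (20.4% and 18.9% of all genes). With no filter 74 were higher and 14 lower (16.6% and 15.3% of all genes with a read). At 20 CPM 31 were higher and 10 lower (18.0% and 21.6% of all genes). The number of genes measured over all lists was not computed. Of 432 counts by list and alternative, 394 stayed within 1.5 times the main count, and 28 of the 38 that did not came from a changed filter. A count of 0 that stayed at 0 was taken as within. Many of the 394 are of this kind, since most lists had 0 genes lower, so they overstate how firm the counts are.

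Pair shares in the NPC library moved with length. LHX9 held 12.4% of its pair by reads alone and 12.5% with median transcripts, LMX1B 48.4% by reads alone, and with median transcripts LHX5 held 81.8% and LHX8 68.6%. In hESC 9 of 10 members had 16 reads or fewer, and their intervals are wide.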

Other observations

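LHX4-AS1, which overlaps LHX4, had 11 hESC reads and 180 NPC reads, a ratio of 10.03 (5.71 to 21.3), where LHX4 itself had a ratio of 2.37 (1.36 to 4.62). ACBD6, which also overlaps LHX4, had 1579 and 1380 reads, within the 2-fold rule. LHX5-AS1, which lies beside LHX5, had 0 and 84 reads. These neighbours were chosen after their values were seen, and strand was not available to separate overlapping genes.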
